A study of Mus musculus with 6 samples.

Results

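Collagens and extracellular matrix glycoproteins were followed in macrophages that had been isolated by cell sorting from CT26 tumours. CT26 is a mouse colon carcinoma line. Members were every gene whose symbol has the form of a collagen chain (Col, a number, a, a number), together with Dcn, Lum, Bgn, Sparc, Fn1, Tnc, Fbn1, Postn, Thbs1, Tgfbi, Tgm2, Lox, Loxl3, Nid1, Vcan and Thy1. This gave 41 members of the 15487 genes in the deposited table, 25 collagen chains and 16 others. There were 3 libraries from Sg-C3 tumours and 3 from Sg-Con tumours, names taken here to mean tumour cells that carry a guide RNA against complement C3 and a control guide RNA. All 6 libraries share the BALB/C background, the wild type label and tumour collection on day 15. The sources used here do not say whether the Sg-C3 tumour line is a clone or a pool. Because the macrophages are labelled wild type, their own C3 RNA does not check the group labels. Separate animals are not stated for the libraries of a group, so each p-value covers the spread among these libraries alone, and that spread may be technical.

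Collagens are secreted as triple helices of 3 chains and assembled outside the cell into fibrils, such as those of types I, III and V, or into networks, such as the type IV collagen of basement membranes. Fibroblasts and pericytes are the main source of fibrillar collagen, decorin, lumican and periostin in a tumour. Macrophages and monocytes are known to make matrix proteins of another kind, among them fibronectin, the TGF-beta-induced protein Tgfbi, thrombospondin 1, versican and the protein cross-linking enzyme transglutaminase 2, and they also take up and degrade collagen. To set these sources apart, 19 members known mainly from stromal cells and 5 known from macrophages or monocytes (Fn1, Tgfbi, Thbs1, Tgm2 and Vcan) were described as separate sets, and 17 members were put in neither.

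Values are FPKM, fragments scaled to transcript length and to the mapped total of the library, so levels can be compared between genes. Per library the FPKM total was 474579 to 487358, and steps in the values of short genes imply between 17.6 and 19.3 megareads per library. A level of 1 FPKM over 1 kilobase then stands for about that many reads, which is an estimate. Between 14741 and 14921 genes were above 0 in a library. The labelled cell type was checked against its markers. All 9 macrophage markers passed the filter, and their summed level was 7260 to 9407 FPKM in Sg-C3 libraries and 13120 to 14280 FPKM in Sg-Con libraries. Cd68, Lyz2, Itgam and Mertk were lower in Sg-C3 by the test described below. The other 5, Csf1r, C1qa, C1qb, Fcgr1 and Adgre1, were not called. By the same test 31.7% of all tested genes were lower and 12.7% higher. Lyz2 alone had 2710 to 3730 FPKM in Sg-C3 and 6928 to 8718 FPKM in Sg-Con, much of the difference between these sums.

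The test was limma on log2(FPKM + 1), for genes that reached 1 FPKM in 3 or more libraries, and a gene was called at a Benjamini-Hochberg adjusted p below 0.05 over the 11198 genes tested. Each log2 fold change is the Sg-C3 mean less the Sg-Con mean of log2(FPKM + 1), and it is smaller than the true change in low genes. Of the 41 members 27 were tested, and 23 of these reached 1 FPKM in all 6 libraries. Col5a3 passed although every Sg-Con library was under 1 FPKM, so its place among the tested members rests on Sg-C3. Its direction was thus set by the filter, and it is counted among the members called higher. Among the 27 tested members 11 were called higher in Sg-C3, against 12.7% of all tested genes. Another 4 were called lower, against 31.7% of all tested genes, and 12 were not called. In either direction that is 15 of 27 members, against 44.4% of all tested genes. The median log2 fold change was 0.36 over the tested members and -0.16 over all tested genes. In 13 tested members every Sg-C3 library lay above every Sg-Con library, a separation seen in 16.2% of all tested genes. In 4 members every Sg-C3 library lay below, as in 41.4% of all tested genes. RNA from a sorted bulk sample cannot tell fewer cells of a type apart from less RNA per cell, and this holds for each difference given here.

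**Figure D1:**
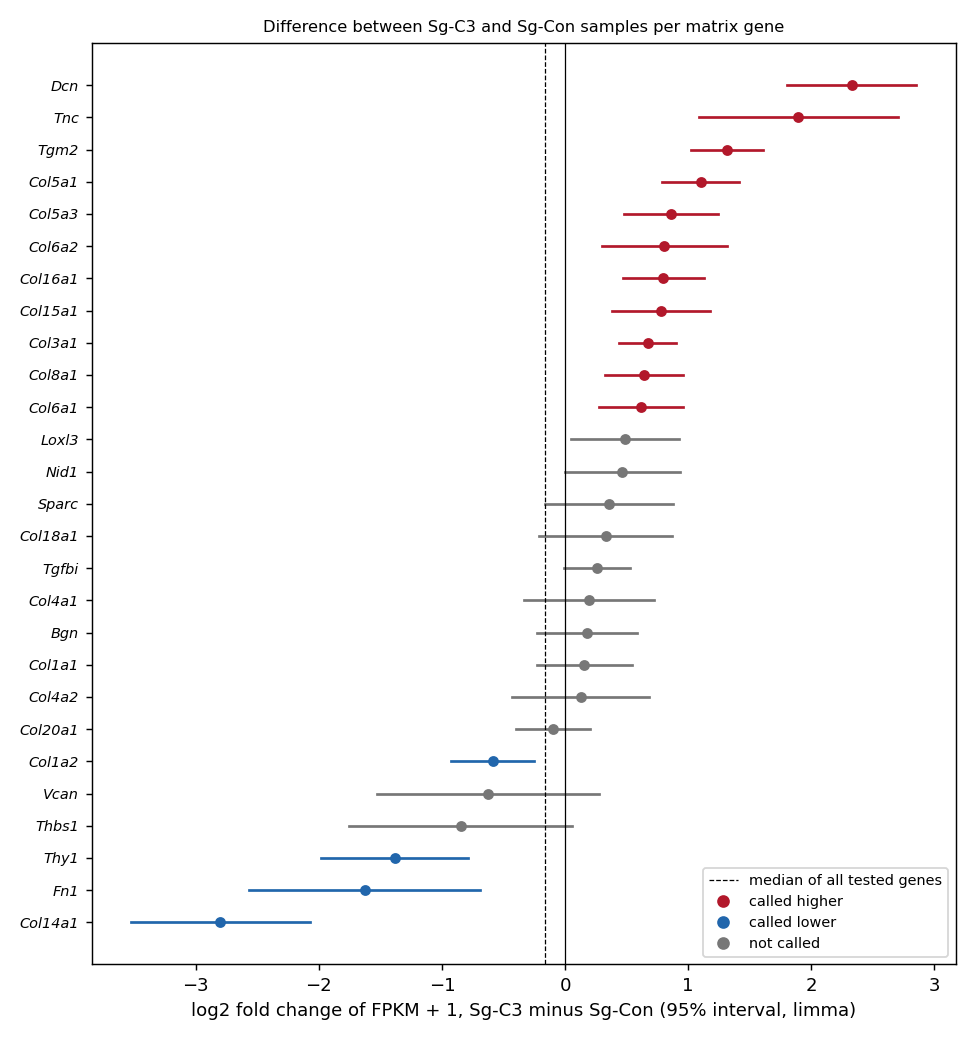
Log2 fold change of each tested member, Sg-C3 minus Sg-Con on the log2(FPKM + 1) scale, with limma's 95% confidence interval as the bar (red called higher, blue called lower, grey not called) and the median of all tested genes as a dashed line. Dcn (2.33) and Tnc (1.89) lie farthest to the right of 0, and Col14a1 (-2.80) and Fn1 (-1.63) farthest to the left.

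The 14 members that were not tested were low throughout. In 11 of them no library reached 1 FPKM: Col10a1, Col11a2, Col27a1, Col4a5, Col5a2, Col6a6, Col7a1, Col9a3, Lox, Lum and Postn. Col12a1, Fbn1 and Col6a3 reached it in 1 or 2 libraries. When the filter was dropped, 16 of 41 members were called higher and 5 lower, against 10.0% and 22.1% of the 15487 genes. The calls added that way were Col11a2, Col12a1, Col9a3, Lox and Postn as higher and Col6a6 as lower. All 6 were low, with no Sg-Con library above 1 FPKM. Postn, periostin, had 0.69, 0.64 and 0.65 FPKM in Sg-C3 and 0.31, 0.39 and 0.44 FPKM in Sg-Con. Lum, lumican, a proteoglycan that in connective tissue usually accompanies decorin, had 0.30, 0.31 and 0.16 FPKM in Sg-C3 and 0.28, 0.50 and 0.48 FPKM in Sg-Con.

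The fibril-forming collagens moved in both directions. Of the 5 tested, Col3a1, Col5a1 and Col5a3 were higher in Sg-C3, Col1a2 was lower and Col1a1 was not called. Col3a1, the single chain of type III collagen and the most abundant collagen here, had 34.32, 36.43 and 31.86 FPKM in Sg-C3 libraries and 19.22, 22.61 and 21.58 FPKM in Sg-Con libraries. The groups did not overlap. Its mean was 34.2 ± 2.29 FPKM in Sg-C3 and 21.1 ± 1.74 FPKM in Sg-Con (SD, n = 3 each), a 1.62-fold difference with a limma log2 fold change of 0.67 (SE 0.10, adjusted p = 0.00352). Col5a1, a chain of type V collagen, which sits within type I fibrils and limits their width, had 4.33, 5.24 and 3.82 FPKM in Sg-C3 and 1.40, 1.45 and 1.76 FPKM in Sg-Con. Every Sg-C3 library was above every Sg-Con library, and the means differed 2.90-fold (log2 fold change 1.10, SE 0.13, limma adjusted p = 0.0021). Col5a3, another type V chain, had 2.02, 1.74 and 1.13 FPKM in Sg-C3 and 0.28, 0.55 and 0.48 FPKM in Sg-Con (log2 fold change 0.86, limma adjusted p = 0.00697). Because Col5a3 passed the filter through Sg-C3 alone, its direction was set by the filter.

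The 2 chains of type I collagen did not move with Col3a1. Col1a1 had 5.21, 7.10 and 4.76 FPKM in Sg-C3 and 4.39, 4.61 and 5.91 FPKM in Sg-Con, and the groups overlapped. Its log2 fold change was 0.16 (95% interval -0.23 to 0.54, limma adjusted p = 0.458). Col1a2 had 7.96, 9.67 and 7.71 FPKM in Sg-C3 and 10.93, 15.01 and 13.80 FPKM in Sg-Con, with no overlap. Its mean was 8.45 ± 1.07 FPKM in Sg-C3 and 13.2 ± 2.10 FPKM in Sg-Con (SD, n = 3 each; log2 fold change -0.59, SE 0.14, limma adjusted p = 0.0155). That call is the least settled among the fibril-forming chains: the adjusted p was 0.0539 without Sg-C3 replicate 1, 0.0501 without Sg-Con replicate 2, 0.0655 with quantile normalization and 0.063 with median-ratio scaling. Type I collagen is usually built from 2 chains of Col1a1 and 1 of Col1a2. Within a library the ratio of Col1a2 to Col1a1 was 1.36 to 1.62 in Sg-C3 and 2.34 to 3.26 in Sg-Con, while the ratio of Col3a1 to Col1a1 was 5.13 to 6.69 in Sg-C3 and 3.65 to 4.90 in Sg-Con. In all 6 libraries the chain made in excess in the type I trimer was the lower of the pair.

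The stretches before the starts of 3 fibril-forming genes are shown because these genes went in different ways. They were read from the RefSeq promoter table of GRCm38.p6, another build than the mm8 named in the submitters' processing notes, and each covers the 250 bases before the annotated start. Capitals mark 3 motifs searched on both strands: the CCAAT box, the TATAAA form of the TATA box and the GGGCGG form of the GC box. Thus a match on the other strand appears as its reverse complement. None of these motifs overlaps another in the windows printed. Col3a1 lies at chr1:45311288-45311537 on the plus strand, Col5a1 at chr2:27886175-27886424 on the plus strand and Col1a2 at chr6:4505368-4505617 on the plus strand.
Col3a1: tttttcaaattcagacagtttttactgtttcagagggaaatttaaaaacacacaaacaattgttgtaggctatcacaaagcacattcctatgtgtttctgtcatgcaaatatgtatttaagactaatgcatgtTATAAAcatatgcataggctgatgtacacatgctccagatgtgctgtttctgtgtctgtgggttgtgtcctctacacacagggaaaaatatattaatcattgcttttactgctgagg
Col5a1: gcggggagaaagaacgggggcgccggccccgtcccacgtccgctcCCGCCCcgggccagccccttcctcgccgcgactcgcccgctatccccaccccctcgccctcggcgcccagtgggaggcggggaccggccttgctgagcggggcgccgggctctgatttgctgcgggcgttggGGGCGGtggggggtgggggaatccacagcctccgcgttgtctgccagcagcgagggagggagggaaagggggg
Col1a2: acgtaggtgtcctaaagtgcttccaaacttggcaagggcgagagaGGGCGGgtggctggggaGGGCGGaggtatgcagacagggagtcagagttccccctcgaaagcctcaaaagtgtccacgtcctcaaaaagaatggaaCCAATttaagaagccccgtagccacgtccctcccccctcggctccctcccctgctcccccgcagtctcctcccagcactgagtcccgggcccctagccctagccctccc
The Col3a1 window is rich in A and T and holds TATAAA starting 117 bases before the start. The Col5a1 window is rich in G and C and holds GGGCGG at 73 bases before the start and, on the other strand, at 205. The Col1a2 window holds CCAAT at 109 bases before the start and GGGCGG at 205 and 188. Of the 41 members 28 had a promoter in the table, and 10 of those held CCAAT, 5 TATAAA and 19 GGGCGG. Of all 32851 promoters listed there, 33.8% held CCAAT, 12.4% TATAAA and 32.7% GGGCGG. These shares count promoters, while members were counted by gene, with a match in any listed promoter of the gene enough. The member counts and these shares thus differ in unit and are not directly comparable. A match is a string of letters and not a binding site, and no factor binding was measured here.

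The fibril-associated collagens, which decorate fibrils without forming them, included the member with the largest fall. Col14a1, which binds decorin on fibrils, had 1.41, 0.61 and 2.49 FPKM in Sg-C3 and 21.96, 13.69 and 12.54 FPKM in Sg-Con. The highest Sg-C3 library was well below the lowest Sg-Con library. The Sg-Con mean was 10.7-fold that of Sg-C3, with a log2 fold change of -2.80 (SE 0.31, 95% interval -3.53 to -2.07, limma adjusted p = 0.00189). Col16a1, a fibril-associated chain found in many connective tissues, went the other way, with 3.59, 4.25 and 2.87 FPKM in Sg-C3 and 1.43, 1.60 and 1.80 FPKM in Sg-Con (log2 fold change 0.80, limma adjusted p = 0.00577). The groups did not overlap for either gene. Col20a1 lay between 1.29 and 1.90 FPKM in Sg-C3 and between 1.57 and 1.91 FPKM in Sg-Con and was not called.

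Of the 4 basement membrane collagens tested, only Col15a1 passed. Col15a1, which anchors basement membranes to the matrix around vessels and muscle, had 2.60, 3.11 and 2.18 FPKM in Sg-C3 and 1.27, 0.70 and 1.40 FPKM in Sg-Con (log2 fold change 0.78, SE 0.17, limma adjusted p = 0.0108). Every Sg-C3 value was above every Sg-Con value. Col18a1, the parent of endostatin, had a log2 fold change of 0.33 (limma adjusted p = 0.268). The type IV chains Col4a1 and Col4a2, which make up the common network of basement membranes, had log2 fold changes of 0.19 (adjusted p = 0.508) and 0.13 (adjusted p = 0.682). Without Sg-Con replicate 2, its highest library, Col4a1 passed at 0.46 (adjusted p = 0.0384). For Col4a1 the 3 Sg-C3 libraries were close together at 5.09, 5.03 and 4.91 FPKM, while the Sg-Con libraries were spread over 3.03, 6.64 and 3.73 FPKM. Col4a2 had the same order among the Sg-Con libraries, with 1.62, 4.17 and 2.29 FPKM, against 2.76, 3.16 and 2.71 FPKM in Sg-C3. The ratio of Col4a1 to Col4a2 was 1.59 to 1.84 in Sg-C3 and 1.59 to 1.87 in Sg-Con, so the pair kept its proportion in libraries where its level differed.

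Col4a1 and Col4a2 are transcribed away from each other from adjoining starts. In the RefSeq table of GRCm38.p6 Col4a1 starts at base 11312826 on the minus strand of chromosome 8 and Col4a2 at base 11312805 on the plus strand, so the annotated transcripts overlap by 22 bases. The shared stretch, chr8:11312805-11312826 on the plus strand, is shown because it joins the starts of both genes, with the GGGCGG it holds in capitals.
Col4a1 and Col4a2 starts: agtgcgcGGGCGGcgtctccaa

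All 3 tested network collagens outside the basement membrane were higher in Sg-C3. Col6a1, a chain of the beaded filaments of type VI collagen, had 9.86, 7.73 and 8.07 FPKM in Sg-C3 and 4.25, 5.61 and 5.89 FPKM in Sg-Con (log2 fold change 0.62, SE 0.14, limma adjusted p = 0.0141). Its partner Col6a2 had 5.30, 2.80 and 3.23 FPKM in Sg-C3 and 1.26, 2.17 and 1.64 FPKM in Sg-Con (log2 fold change 0.81, SE 0.22, limma adjusted p = 0.022). The groups did not overlap for either chain, but Sg-C3 replicate 1 was highest for both. Leaving it out gave Col6a2 an adjusted p of 0.0502, leaving out Sg-Con replicate 1 gave 0.0625 and leaving out Sg-Con replicate 3 gave 0.0507. Col6a3, the third chain of the filament, stayed at 0.40 to 0.55 FPKM in Sg-C3 and 0.52 to 1.00 FPKM in Sg-Con and was not tested. Col8a1, a short-chain collagen of vessel walls, had 2.47, 2.80 and 2.49 FPKM in Sg-C3 and 0.95, 1.56 and 1.43 FPKM in Sg-Con (log2 fold change 0.64, limma adjusted p = 0.00986). Its groups were separate too.

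Dcn was the stromal member with the largest rise. Decorin, its product, is a small proteoglycan that binds collagen fibrils and TGF-beta. Dcn had 120.89, 134.70 and 85.28 FPKM in Sg-C3 and 19.06, 28.75 and 17.90 FPKM in Sg-Con. The lowest Sg-C3 library was far above the highest Sg-Con library. The means were 114 ± 25.5 FPKM in Sg-C3 and 21.9 ± 5.96 FPKM in Sg-Con (SD, n = 3 each), a 5.19-fold difference with a log2 fold change of 2.33 (SE 0.22, 95% interval 1.80 to 2.85, limma adjusted p = 0.00133). It stood above every fibrillar collagen in Sg-C3. The ratio of Dcn to Col3a1 was 2.68 to 3.70 in Sg-C3 libraries and 0.829 to 1.27 in Sg-Con libraries, and the ratio of Dcn to Col1a1 was 17.9 to 23.2 in Sg-C3 and 3.03 to 6.24 in Sg-Con. The member proteoglycans Bgn and Lum did not follow it. Aspn, a relative of decorin outside the members, was called higher, though it passed the filter through Sg-C3 alone. Bgn, biglycan, the closest relative of decorin, had 1.80, 2.11 and 1.94 FPKM in Sg-C3 and 1.01, 2.06 and 1.86 FPKM in Sg-Con (log2 fold change 0.18, limma adjusted p = 0.419). The ratio of Bgn to Dcn was 0.0149 to 0.0227 in Sg-C3 and 0.0530 to 0.104 in Sg-Con, and that of Lum to Dcn was 0.00188 to 0.00248 in Sg-C3 and 0.0147 to 0.0268 in Sg-Con.

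**Figure D2:**
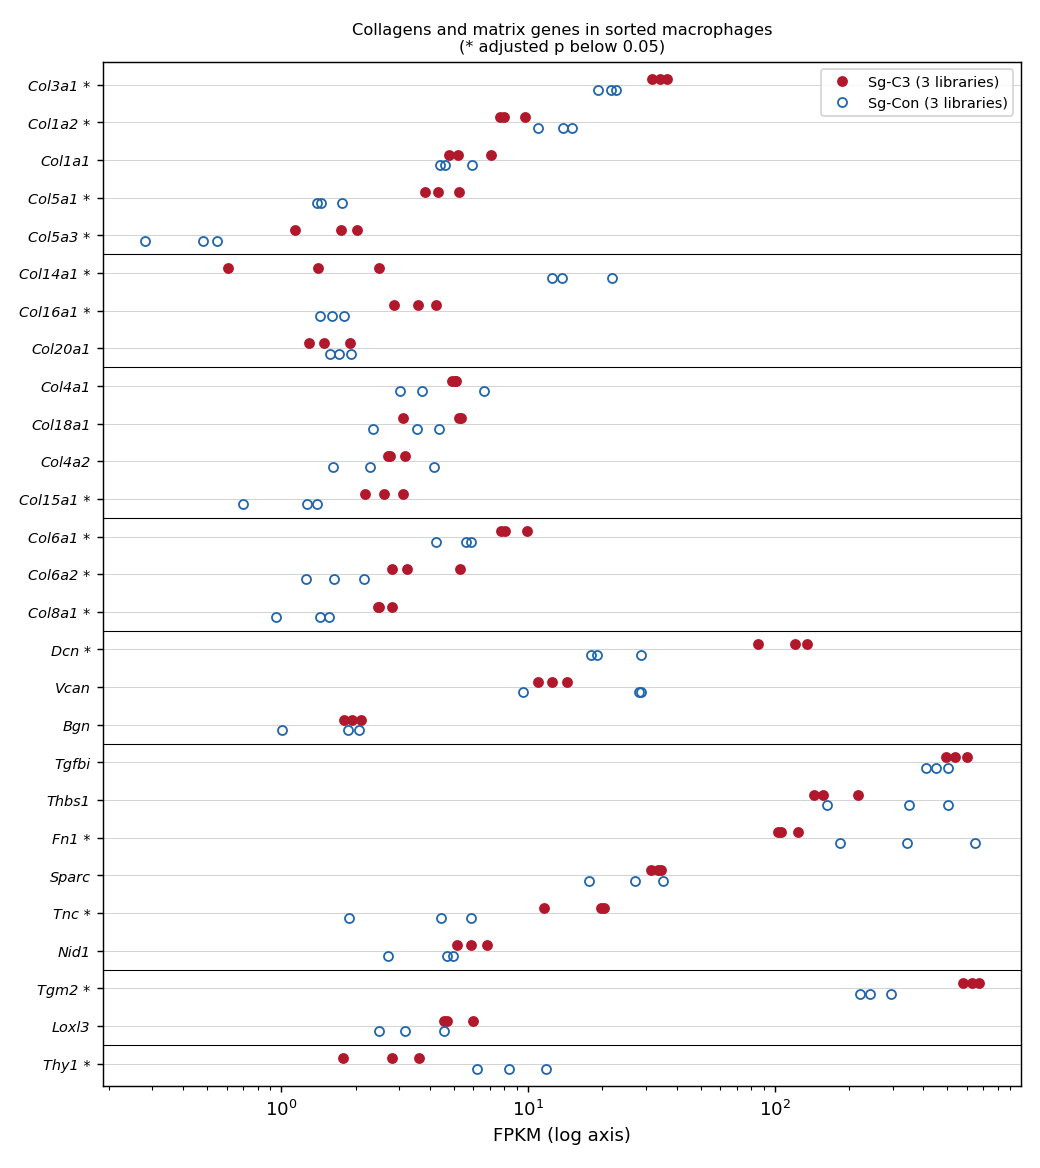
FPKM of the 27 tested members in each library on a log axis, grouped by class, with an asterisk at an adjusted p below 0.05, Sg-C3 libraries as filled red points and Sg-Con libraries as open blue points. Dcn lies at 85.28 to 134.70 FPKM in Sg-C3 and 17.90 to 28.75 FPKM in Sg-Con with no overlap, whereas the Col1a1 points of the groups are mixed.

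Tnc, tenascin-C, a glycoprotein of wounds and tumour stroma that can weaken cell adhesion to fibronectin, had 19.82, 20.21 and 11.56 FPKM in Sg-C3 and 1.88, 4.45 and 5.89 FPKM in Sg-Con. Its groups did not overlap. The means were 17.2 ± 4.89 FPKM in Sg-C3 and 4.07 ± 2.03 FPKM in Sg-Con (SD, n = 3 each), a 4.22-fold difference (log2 fold change 1.89, SE 0.34, limma adjusted p = 0.00635). The 250 bases before its start, at chr4:64047016-64047265 on the minus strand of GRCm38.p6, are shown because Tnc was among the members with the largest rise, with the same motifs in capitals.
Tnc: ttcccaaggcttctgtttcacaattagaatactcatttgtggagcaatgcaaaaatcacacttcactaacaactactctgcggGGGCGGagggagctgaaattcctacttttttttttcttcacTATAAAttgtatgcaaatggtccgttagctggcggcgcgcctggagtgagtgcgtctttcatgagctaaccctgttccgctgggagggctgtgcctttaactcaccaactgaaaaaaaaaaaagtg
The window holds TATAAA at 126 bases before the start and GGGCGG at 167. Nid1, nidogen 1, which links laminin to type IV collagen, had 5.87, 6.79 and 5.13 FPKM in Sg-C3 and 2.70, 4.95 and 4.67 FPKM in Sg-Con (log2 fold change 0.46, limma adjusted p = 0.0934). Sparc, osteonectin, a collagen-binding glycoprotein, had 34.57, 33.56 and 31.46 FPKM in Sg-C3 and 17.66, 35.32 and 27.03 FPKM in Sg-Con. The Sparc groups overlapped, because 1 Sg-Con library was above all Sg-C3 libraries (log2 fold change 0.36, 95% interval -0.17 to 0.88, limma adjusted p = 0.222).

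Tgfbi, Tgm2, Thbs1 and Fn1 were the most abundant members by mean FPKM, while Vcan, the fifth member known from macrophages or monocytes, was below Dcn, Sparc and Col3a1. The 5 went different ways, with 1 higher, 1 lower and 3 not called. Tgm2, transglutaminase 2, which cross-links matrix proteins such as fibronectin, had 670.40, 629.87 and 578.41 FPKM in Sg-C3 and 220.98, 241.75 and 294.80 FPKM in Sg-Con. Every Sg-C3 library was well above every Sg-Con library. The means were 626 ± 46.1 FPKM in Sg-C3 and 253 ± 38.1 FPKM in Sg-Con (SD, n = 3 each), a 2.48-fold difference (log2 fold change 1.31, SE 0.13, limma adjusted p = 0.0013). Fn1, fibronectin, had 102.71, 124.58 and 105.38 FPKM in Sg-C3 and 183.22, 646.30 and 341.53 FPKM in Sg-Con. The groups did not overlap, and the Sg-Con libraries were spread widely while the Sg-C3 libraries were close together. The means were 111 ± 11.9 FPKM in Sg-C3 and 390.4 ± 235 FPKM in Sg-Con (SD, n = 3 each; log2 fold change -1.63, SE 0.40, limma adjusted p = 0.0162). Without Sg-Con replicate 2, the highest, the log2 fold change was -1.17 (adjusted p = 0.02), and without Sg-C3 replicate 1 the adjusted p was 0.0546.

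Thbs1 and Vcan had the same order among the Sg-Con libraries as Fn1 at the low end. Thbs1, thrombospondin 1, a glycoprotein that can activate TGF-beta, had 144.64, 216.24 and 156.84 FPKM in Sg-C3 and 162.90, 504.73 and 350.79 FPKM in Sg-Con (log2 fold change -0.85, 95% interval -1.75 to 0.06, limma adjusted p = 0.109). Vcan, versican, a large proteoglycan that monocytes make, had 14.36, 12.49 and 10.95 FPKM in Sg-C3 and 9.49, 28.58 and 28.26 FPKM in Sg-Con (log2 fold change -0.62, limma adjusted p = 0.216). In both genes Sg-Con replicate 1 fell within or below the Sg-C3 range and the other 2 Sg-Con libraries lay above it. Without Sg-Con replicate 1 the log2 fold change was -1.30 for Thbs1 (adjusted p = 0.00858) and -1.12 for Vcan (adjusted p = 0.00352). Tgfbi, a secreted protein that binds collagen and integrins, was close in both groups at 493.36, 538.22 and 597.66 FPKM in Sg-C3 and 450.21, 502.28 and 408.07 FPKM in Sg-Con. The Tgfbi groups overlapped (log2 fold change 0.26, 95% interval -0.01 to 0.53, limma adjusted p = 0.0994), although median-ratio scaling gave 0.43 and an adjusted p of 0.0323.

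**Figure D3:**
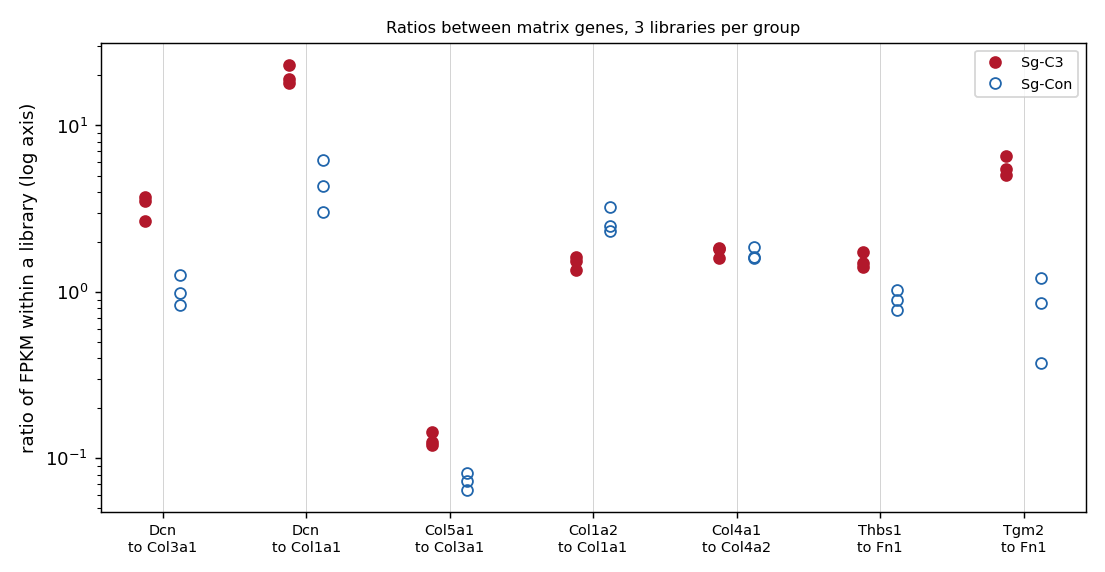
Ratio of 2 members' FPKM within each library on a log axis, Sg-C3 libraries as filled red points and Sg-Con libraries as open blue points. The Tgm2 to Fn1 ratio is 5.06 to 6.53 in Sg-C3 and 0.374 to 1.21 in Sg-Con, whereas the Col4a1 to Col4a2 ratio covers nearly the same range in both groups.

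Ratios within a library showed how far these members came apart. Tgm2 exceeded Fn1 by 5.06 to 6.53 times in Sg-C3, against 0.374 to 1.21 times in Sg-Con. Thbs1 was 1.41 to 1.74 times Fn1 in Sg-C3 and 0.781 to 1.03 times Fn1 in Sg-Con. Tnc, a partner of fibronectin in the matrix, was 0.110 to 0.193 times Fn1 in Sg-C3 and 0.00689 to 0.0172 times Fn1 in Sg-Con. These ratios are descriptions of single libraries and carry no test.

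The remaining members are a cross-linking enzyme and a surface glycoprotein. Loxl3, a lysyl oxidase that cross-links collagen and elastin, had 4.68, 4.57 and 5.99 FPKM in Sg-C3 and 4.55, 2.49 and 3.16 FPKM in Sg-Con. The groups did not overlap, but Sg-Con replicate 1 came close to the lowest Sg-C3 library. It was not called (log2 fold change 0.49, 95% interval 0.04 to 0.93, limma adjusted p = 0.0701), while its adjusted p was 0.033 after median-ratio scaling and 0.0231 without Sg-Con replicate 1. Thy1, a surface glycoprotein found on fibroblasts and, in mice, on T cells, had 2.81, 3.60 and 1.78 FPKM in Sg-C3 and 6.21, 11.84 and 8.36 FPKM in Sg-Con. Every Sg-C3 library was below every Sg-Con library (log2 fold change -1.38, SE 0.25, limma adjusted p = 0.0065). The 9 T cell markers had a summed level of 16.6 to 23.9 FPKM in Sg-C3 and 2.91 to 6.20 FPKM in Sg-Con, and only 2 of them were tested. Cd4, which other leukocytes also carry, was higher in Sg-C3 (log2 fold change 2.51, adjusted p = 0.0036), and Cd3g passed the filter through Sg-C3 alone, where it is high. Cd3e, not tested, had 0.84, 0.78 and 1.58 FPKM in Sg-C3 and 2.20, 0.84 and 0.52 FPKM in Sg-Con.

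Summed over a library, the stromal and the macrophage or monocyte sets differed. The 19 stromal members summed to 227.64, 247.56 and 174.81 FPKM in Sg-C3 and 72.82, 105.67 and 90.63 FPKM in Sg-Con. The groups did not overlap, and the means of 217 ± 37.6 FPKM in Sg-C3 and 89.7 ± 16.4 FPKM in Sg-Con (SD, n = 3 each) differed 2.42-fold. Dcn carried much of this sum. Without Dcn the sum was 106.75, 112.86 and 89.53 FPKM in Sg-C3 and 53.76, 76.92 and 72.73 FPKM in Sg-Con (1.52-fold), and without Dcn and Tnc it was 86.93, 92.65 and 77.97 FPKM in Sg-C3 and 51.88, 72.47 and 66.84 FPKM in Sg-Con (1.35-fold). These genes were set aside after their values were seen. The 5 macrophage or monocyte members summed to 1425.47, 1521.40 and 1449.24 FPKM in Sg-C3 and 1026.80, 1923.64 and 1423.45 FPKM in Sg-Con, with means of 1465 ± 50.0 FPKM in Sg-C3 and 1458 ± 449 FPKM in Sg-Con (SD, n = 3 each). That sum was 1.01-fold, with the higher Tgm2 and the lower Fn1 both inside it. By gene, 6 of 12 tested stromal members were higher and 1 lower. The 5 macrophage or monocyte members had 1 higher and 1 lower, and the 10 tested in neither set had 4 higher and 2 lower. Those 4 include Col5a3, whose direction was set by the filter. Over all tested genes 12.7% were higher and 31.7% lower. The sums carry no test, since the members were chosen with results known.

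**Figure D4:**
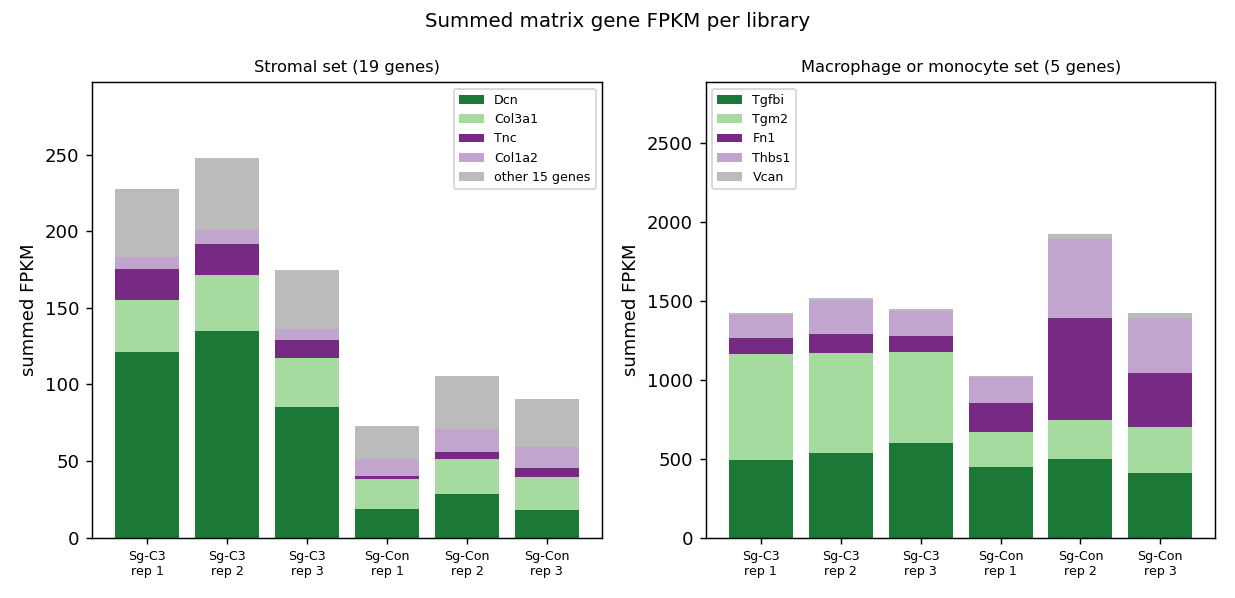
Stacked bars of summed FPKM per library, Sg-C3 left of Sg-Con, for the stromal set and for the macrophage or monocyte set, with each colour 1 gene and grey the other 15 stromal genes or Vcan. Stromal sums lie at 174.81 to 247.56 FPKM in Sg-C3 and 72.82 to 105.67 FPKM in Sg-Con, whereas the macrophage or monocyte sums of the groups overlap.

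Many members shared the order of the libraries within a group. Of the 12 tested stromal members, Sg-C3 replicate 2 was the highest Sg-C3 library for 9 and replicate 3 the lowest for 9. Among Sg-Con libraries replicate 2 was highest for 8 and replicate 1 lowest for 11. The 5 macrophage or monocyte members had Sg-Con replicate 2 highest for 4 and Sg-Con replicate 1 lowest for 4. Over all 27 tested members Sg-Con replicate 1 was lowest in its group for 22. The low Sg-Con replicate 1 was thus shared by stromal members such as Nid1 and Col4a1 and by Fn1, Thbs1 and Vcan. How often it was lowest over all tested genes was not counted, so this order is not shown to be particular to the members.

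Markers of fibroblasts and pericytes that are no members went both ways. Of 15 tested, 8 were higher in Sg-C3, 3 lower and 4 not called, against 12.7% higher and 31.7% lower of all tested genes. Fstl1, a secreted follistatin-like protein, had 12.70, 16.15 and 9.40 FPKM in Sg-C3 and 2.77, 3.27 and 3.26 FPKM in Sg-Con (log2 fold change 1.72, limma adjusted p = 0.00167). Pdgfrb, the PDGF receptor of pericytes and fibroblasts, had 4.61, 6.02 and 4.34 FPKM in Sg-C3 and 1.61, 1.90 and 2.01 FPKM in Sg-Con (log2 fold change 1.07, adjusted p = 0.00243). Dpt, dermatopontin, which binds decorin, had 3.68, 7.49 and 2.93 FPKM in Sg-C3 and 0.38, 0.57 and 0.42 FPKM in Sg-Con (log2 fold change 1.89, adjusted p = 0.00323). Dpt passed the filter through Sg-C3 alone. In these 3 genes the groups did not overlap, and Sg-C3 replicate 2 was highest, as for Dcn and Col3a1. Mmp3, Mmp2, Prrx1, Gas1 and Fap were also higher. Cspg4, the pericyte proteoglycan NG2, which passed the filter through Sg-Con alone, was lower at 0.19, 0.11 and 0.12 FPKM in Sg-C3 against 1.11, 1.64 and 1.60 FPKM in Sg-Con (log2 fold change -1.10, adjusted p = 0.00205). Serpinf1 and Pdpn were lower as well, and Pdgfra was not called (adjusted p = 0.317). The summed level of the list was 163 to 230 FPKM in Sg-C3 and 168 to 462 FPKM in Sg-Con, a ratio of means of 0.557, while the stromal sum was higher in Sg-C3. Without Pdpn, which macrophages can also carry and which was set aside after its values were seen, it was 90.7 to 139 FPKM in Sg-C3 and 45.4 to 67.3 FPKM in Sg-Con. None of the 21 list genes with a row was at 0 in all libraries. Without Sg-C3 replicate 1 or replicate 2 the count called higher was 4, and without Sg-Con replicate 2 the count called lower was 1. The part of these cells in the stromal members' differences was not tested.

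**Figure D5:**
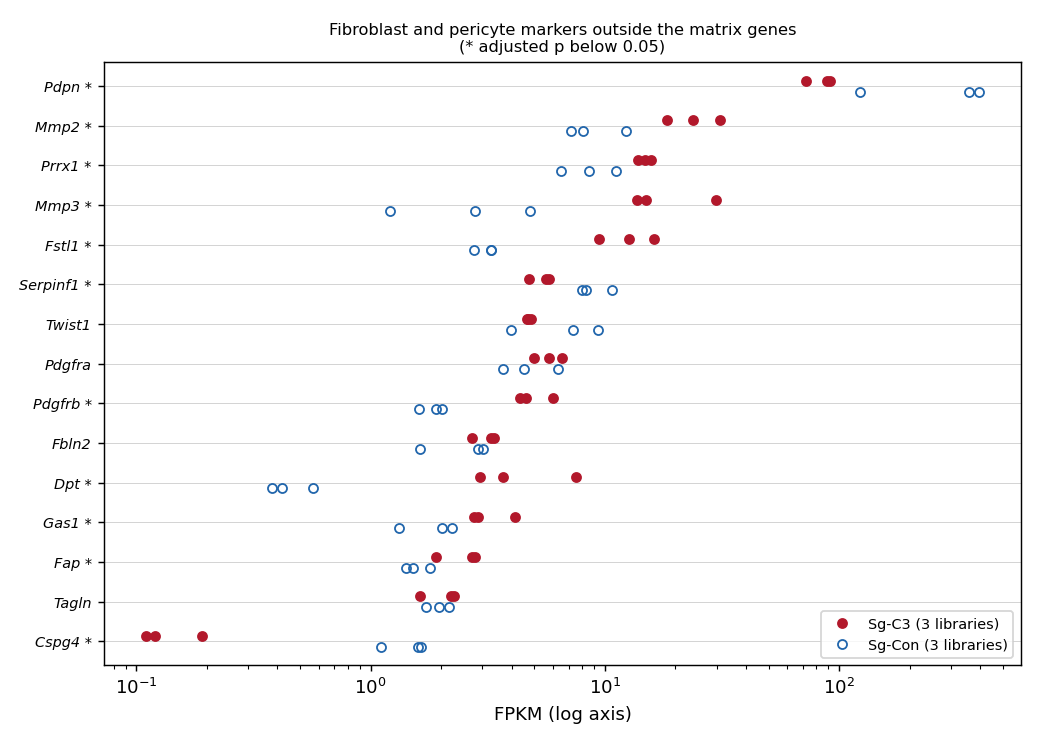
FPKM of the 15 tested fibroblast and pericyte markers in each library on a log axis, with an asterisk at an adjusted p below 0.05, Sg-C3 as filled red points and Sg-Con as open blue points. Fstl1 lies at 9.40 to 16.15 FPKM in Sg-C3 and 2.77 to 3.27 FPKM in Sg-Con, while Cspg4 lies at 0.11 to 0.19 FPKM in Sg-C3 and 1.11 to 1.64 FPKM in Sg-Con.

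Markers of other cell types moved as well, and their part in the members' differences was not tested. For each list below, the calls stand beside 12.7% higher and 31.7% lower over all tested genes. Endothelial markers summed to 62.7 to 82.0 FPKM in Sg-C3 and 16.0 to 20.5 FPKM in Sg-Con. Pecam1, which leukocytes also carry, was higher (log2 fold change 2.72, limma adjusted p = 0.00201), and Kdr was not called. Cdh5 was lower (adjusted p = 0.0291), but it passed the filter through Sg-Con alone, its call was lost in all 3 fits with a library left out that tested it, and median-ratio scaling gave an adjusted p of 0.0532. Without Pecam1, set aside after its values were seen, the sum was 7.11 to 10.3 FPKM in Sg-C3 and 7.74 to 11.4 FPKM in Sg-Con. Epithelial markers, which tumour cells of this line may carry, summed to 2.43 to 3.15 FPKM in Sg-C3 and 16.3 to 30.0 FPKM in Sg-Con, with Cdh1 lower and Krt8, which passed the filter through Sg-Con alone, at 0.26 to 0.36 FPKM in Sg-C3 and 8.92 to 21.86 FPKM in Sg-Con. Platelet markers were of interest because platelets hold thrombospondin 1 and fibronectin. They summed to 3.05 to 3.81 FPKM in Sg-C3 and 9.74 to 14.5 FPKM in Sg-Con. The 1 tested, Ppbp, was lower (log2 fold change -2.43, limma adjusted p = 0.00162). It had 0.29 to 1.34 FPKM in Sg-C3 and 7.59 to 11.76 FPKM in Sg-Con, and the lower sum in Sg-C3 rests on it. Of the 5 not tested, Treml1 had a lower mean in Sg-C3, and Itga2b, Gp9, Gp5 and Gp1ba had higher means. Monocyte markers summed to 323 to 446 FPKM in Sg-C3 and 137 to 255 FPKM in Sg-Con. Of the 6 tested, 3 were higher, Plac8 and Ly6c2 among them, 2 lower, Ccr2 and Chil3, and 1 not called. Plac8 alone had 190 to 278 FPKM in Sg-C3 and 18.8 to 44.8 FPKM in Sg-Con, so the higher sum in Sg-C3 rests on Plac8. Dendritic cell markers summed to 30.0 to 60.6 FPKM in Sg-C3 and 5.06 to 8.52 FPKM in Sg-Con, with Ccr7 and Xcr1 higher. The Xcr1 call was kept in 4 of 6 fits with a library left out, and Ly75 passed the filter through Sg-C3 alone. NK cell markers summed to 13.5 to 18.1 FPKM in Sg-C3 and 0.620 to 1.21 FPKM in Sg-Con. The 3 tested, Gzma, Klrb1c and Nkg7, were under 1 FPKM in every Sg-Con library and passed the filter through Sg-C3 alone, so their direction was set by the filter.

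Genes that process, bind or accompany the members moved without a shared direction. Over the 83 tested genes of 5 such lists 16 were higher and 24 lower, with a median log2 fold change of 0.00, against -0.16 over all tested genes. Among 17 tested genes of collagen processing and secretion 2 were higher (Pcolce and Serpinh1, a procollagen protease enhancer and the collagen chaperone HSP47) and 8 lower, with a median of -0.18. Of all tested genes 12.7% were higher and 31.7% lower. Median-ratio scaling gave 4 higher and 5 lower in this list, and with a library left out 0 to 3 were higher, with 0 without Sg-C3 replicate 1, Sg-C3 replicate 2, Sg-Con replicate 1 or Sg-Con replicate 3. Plod1, a lysyl hydroxylase of collagen, had 34.59, 31.85 and 47.17 FPKM in Sg-C3 and 103.48, 101.30 and 77.93 FPKM in Sg-Con (log2 fold change -1.30, limma adjusted p = 0.00269). Crtap (-0.64), Colgalt1 (-0.66) and P4hb (-0.40), which modify collagen in the endoplasmic reticulum, were lower too. Plod2 (0.40, adjusted p = 0.0792) and P3h3 (0.23, adjusted p = 0.163), chosen after their values were seen, were not called, but in both every Sg-C3 library lay above every Sg-Con library.

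Among 22 tested matrix receptors 4 were higher and 6 lower (median -0.02), against 12.7% higher and 31.7% lower of all tested genes. Itgb3, among those 4 higher, was under 1 FPKM in every Sg-Con library and passed the filter through Sg-C3 alone. The count higher was 2 without Sg-C3 replicate 1, Sg-C3 replicate 2 or Sg-Con replicate 1. The scavenger receptors Mrc1 (log2 fold change -2.41, limma adjusted p = 0.00113) and Stab1 (-2.59, adjusted p = 0.002), which in macrophages take up collagen and Sparc, were lower, as was the endocytic receptor Lrp1 (-1.24, adjusted p = 0.00223). Itga9, an integrin subunit that binds tenascin-C, was higher (1.08, adjusted p = 0.00412). Of 8 tested laminins and basement membrane partners 2 were higher and 2 lower (median -0.30), and with a library left out between 0 and 3 were lower, 0 without Sg-Con replicate 2 or replicate 3, where Nid2 no longer passed the filter. Nid2, the relative of Nid1, which passed the filter through Sg-Con alone, had 0.46, 0.52 and 0.94 FPKM in Sg-C3 and 8.87, 5.52 and 5.37 FPKM in Sg-Con (log2 fold change -2.19, adjusted p = 0.00128), whereas Nid1 itself was not called. Agrn (0.92) and Hspg2 (0.72), heparan sulphate proteoglycans of basement membranes, were higher, and Lamb2 (-0.38) was lower, a call lost under median-ratio scaling (adjusted p = 0.0831).

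Among 17 other matrix glycoproteins and proteoglycans tested 4 were higher and 6 lower (median 0.01). Over all tested genes 12.7% were higher and 31.7% lower. Thbs3, among those 4 higher, was under 1 FPKM in every Sg-Con library and passed the filter through Sg-C3 alone. With a library left out 0 to 3 were higher, 0 without Sg-C3 replicate 2, and 3 to 5 lower. F13a1, a transglutaminase like Tgm2 and a product of macrophages, was lower (log2 fold change -3.65, limma adjusted p = 0.00179). Tgm1, another transglutaminase, chosen after its values were seen, was lower too (-0.64, adjusted p = 0.0275), a call kept in 2 of 6 fits with a library left out. Spp1, osteopontin (-2.28, adjusted p = 0.00418), and Ecm1 (-2.31, adjusted p = 0.00669) were also lower. Aspn, asporin, a relative of decorin, was higher (1.10, adjusted p = 0.018), though it passed the filter through Sg-C3 alone. Of 19 tested genes of the TGF-beta pathway, which drives collagen genes in fibroblasts, 4 were higher and 2 lower (median 0.07), with 2 higher without Sg-C3 replicate 2. Ski (-0.60, adjusted p = 0.0042) was lower, and Smad7 (0.59, adjusted p = 0.00489) and Smad3 (0.94, adjusted p = 0.00593) were higher.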

How the data were processed

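RNA from sorted tumour-associated macrophages was measured in 6 libraries, 3 from Sg-C3 and 3 from Sg-Con tumours. The deposited table gives 1 FPKM value per gene and library, as its column names say. Per the submitters' processing notes the authors used Bowtie 0.12.2 and the mm8 build, and a tool for FPKM is not named in the sources used here. The labels name a TruSeq and an MGIEasy kit. Replicate numbers follow accession order within each group and pair nothing across groups. The table holds no read counts, so depth was estimated from steps in the values of short genes. The depth and an offset of 36 bases taken off gene length were picked for the highest share of whole reads. At that pick 88.1% to 94.2% of low values were whole reads within 0.1 read. A depth fixed beforehand would give 20.0% by chance, which is not the chance level of a picked maximum.

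Genes that reached 1 FPKM in 3 or more of 6 libraries were compared in R 4.3.3 with limma 3.58.1. Its lmFit and eBayes functions, eBayes with trend=TRUE, were run on log2(FPKM + 1), with Benjamini-Hochberg adjustment over all 11198 tested genes and a threshold of 0.05. SE is limma's moderated standard error, and fold is the ratio of mean FPKM. Python 3.11.15, pandas 2.3.3, numpy 2.4.6 and matplotlib 3.10.9 were used for sums and figures. The scripts were tested on simulated data. The members, their sets, the marker lists and the companion lists were chosen with earlier results of these data known, so no list has a p-value. Values in every library are given for called members and for Col1a1, Col1a2, Col3a1, Dcn, Fn1, Tgfbi, Thbs1, Sparc, Vcan and Thy1. From each marker or companion list the genes tested with the smallest p are named, up to 4, and any others named were chosen after their values were seen. Sequences come from RefSeq promoters of GRCm38.p6. List genes without a row in the table were not analysed here, and single values of some list genes are not reported here.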

Additional observations from a re-analysis of the deposited data

How the results depend on the processing

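Each result was recomputed under 14 alternatives: a pseudocount of 0.1, no filter, a mean of at least 5 FPKM, quantile normalization, median-ratio scaling, a robust prior, array weights, a looser threshold (adjusted p of 0.1) and each library left out in turn. Of the 15 called members 12 stayed called in every alternative that tested them, and Col1a2, Col6a2 and Fn1 lost the call in at least 1. Members called higher numbered 5 with a mean of at least 5 FPKM, where fewer genes are tested, and 9 to 12 with a library left out. Members called lower numbered 2 to 6 with a library left out, 2 of them without Sg-C3 replicate 1.

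Scaling moved the balance over all genes. Median-ratio scaling moved the median log2 fold change across the genes tested to -0.02, against -0.16, and gave 2088 higher and 2134 lower, against 1418 and 3554; quantile normalization gave 1845 and 2459. Under median-ratio scaling 13 members were higher and 3 lower, against 18.6% and 19.1% of all tested genes, with log2 fold changes of 2.49 for Dcn, 1.48 for Tgm2, -1.46 for Fn1 and -2.68 for Col14a1. It also gave the macrophage or monocyte set a sum of 1549 FPKM in Sg-C3, against 1465. With a library left out, 810 to 1423 genes were higher and 1970 to 3639 lower. Companion genes called higher numbered 10 with a mean of at least 5 FPKM and 6 to 13 with a library left out, and those called lower 17 to 24.

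Only members that were not called changed sign. With a library left out the log2 fold change lay between -0.0054 and 0.30 for Bgn, between -0.00045 and 0.46 for Col4a1 and between -0.091 and 0.40 for Col4a2, each lowest without Sg-Con replicate 1 and highest without Sg-Con replicate 2, and Col20a1 had 0.0045 under median-ratio scaling. The cause was not tested. No paired analysis was possible because the labels give no replicate numbers shared between the groups. With 3 libraries a group, intervals are wide for Fn1, Thbs1 and Vcan, and below 1 FPKM short transcripts rest on few reads.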
